A study of Caenorhabditis elegans with 2 samples.

Results

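The 8 endoplasmic reticulum (ER) chaperone genes of Caenorhabditis elegans described here are hsp-3, hsp-4, enpl-1, crt-1, cnx-1, pdi-1, pdi-2 and pdi-3, out of 19973 protein-coding genes on the nuclear chromosomes. They were examined for regions ranked by the signal of ELT-1, a GATA-type transcription factor that embryos need to form epidermis. A region was given to a gene when its summit lay between 3 kb upstream of the gene start and the gene end, which gave 32 of the 30000 regions in the pooled ranked list. The genes were chosen by their shared role, with the pooled and replicate signals in these windows already known. Their ranks and peaks are therefore given as a description, and no test was run.

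Chromatin immunoprecipitation and sequencing (ChIP-seq) was done on whole L2 larvae, the second of the worm's larval stages, in 1 group of 2 biological replicates. All animals were of strain OP354, with the genotype unc-119(tm4063) III; wgIs354, where wgIs354 is the inserted transgene that supplies ELT-1 with a green fluorescent tag (eGFP). Sexes were pooled and the age is labelled unknown. The labels describe the immunoprecipitation as directed at the eGFP fusion while the antibody field reads elt-1. They list no mutation of the worm's own elt-1 gene and no untagged or mutant group. Whole animals were used, so a signal cannot be assigned to a tissue, and strong binding in few cells and weak binding in many cannot be told apart.

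ER chaperones fold secreted and membrane proteins. BiP, an Hsp70 of the ER lumen, and GRP94, its Hsp90 partner, hold unfolded chains, calreticulin and calnexin hold chains that carry trimmed sugars, and protein disulfide isomerases make and exchange disulfide bonds. The worm epidermis, where ELT-1 is known to act in the embryo, secretes the collagens of the cuticle and renews them at each molt. When unfolded proteins accumulate, the unfolded protein response raises the transcription of many of these genes, in part through the factor XBP-1.

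The pooled list had a median signal of 7.81 and is labelled as peaks and background. Its 351 strongest regions, with signals of 24.6 to 692, formed the authors' thresholded list and are called peaks here. The other ranked regions can be background and are not called bound. Each replicate had a list of its own with 30000 regions, with medians of 4.65 in replicate 1 and 5.17 in replicate 2. Signals are the authors' values on a scale that differs between lists, so each is also given as a fold, meaning its ratio to the list's median region. In every list the strongest region lay in elt-1. The transgene brings elt-1 sequence of its own, and the strain of the control is not given. Binding and extra copies therefore cannot be told apart at elt-1. Read depth is unknown from these files, and 2 replicates limit the precision of each mean.

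ELT-1 peaks stood at 3 of the 8 genes: the BiP gene hsp-3, with 2 peaks, the GRP94 gene enpl-1 and the disulfide isomerase gene pdi-2. Of all protein-coding genes, 1.74% had a peak in the same window and 0.200% had 2 or more. The other BiP gene hsp-4, calreticulin crt-1, calnexin cnx-1 and the isomerase genes pdi-1 and pdi-3 had none. Since these peaks were known when the genes were chosen, nothing is read from the count. All 8 genes had at least 1 ranked region, against 80.4% of all genes.

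The DNA around the summits differed between the peaks, and the stretches from 50 bp before to 50 bp after the pooled summit are shown because the motif results below rest on them. Sequences are from the RefSeq WBcel235 genome (the assembly also named ce11), written 5′ to 3′ on the strand of the gene. Capitals mark GATA sites, meaning the letters GATA with A or T before them and A or G after them, as in AGATAA, on either strand. Distances are from the annotated gene start to the summit.
hsp-3, 562 bp upstream, chrX:6092636-6092736: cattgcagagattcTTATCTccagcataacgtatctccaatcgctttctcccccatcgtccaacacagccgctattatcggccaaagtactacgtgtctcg
hsp-3, 74 bp upstream, chrX:6092148-6092248: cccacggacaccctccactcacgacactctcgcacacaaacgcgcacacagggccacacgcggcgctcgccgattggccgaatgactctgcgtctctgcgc
enpl-1, 1103 bp downstream, chrIV:11120351-11120451: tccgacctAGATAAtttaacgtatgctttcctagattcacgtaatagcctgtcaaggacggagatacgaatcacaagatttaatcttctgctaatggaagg
pdi-2, 1842 bp upstream, chrX:4522263-4522363: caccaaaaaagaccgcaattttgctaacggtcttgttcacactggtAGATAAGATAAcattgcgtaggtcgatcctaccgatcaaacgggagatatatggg

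The calreticulin gene crt-1 had the strongest region outside the peaks, and its summit sequence is shown in the same form because it is compared with that of hsp-3 below. It holds no GATA site.
crt-1, 290 bp upstream, chrV:6100782-6100882: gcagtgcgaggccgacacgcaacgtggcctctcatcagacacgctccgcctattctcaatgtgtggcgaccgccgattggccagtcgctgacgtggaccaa

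The BiP gene hsp-3 (WBGene00002007, chrX:6089028-6092124, minus strand) carried the strongest ELT-1 region of the set. Its upstream peak spanned chrX:6092554-6092817, between genes, with the summit 562 bp upstream of the start. The pooled signal was 76.2, rank 18 of the 30000 regions and 9.76-fold over the median region. The signal was 38.3 in replicate 1, at rank 38 and 8.24-fold, and 39.4 in replicate 2, at rank 15 and 7.63-fold. The mean was 7.93 ± 0.43-fold (SD, n = 2), so both replicates placed this region near the top of their lists. The replicate summits lay 19 bp and 45 bp from the pooled one, at 581 and 607 bp upstream.

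A second, weaker hsp-3 peak lay next to the gene start, at chrX:6092066-6092329, with its summit 74 bp upstream. Its pooled signal was 32.9, rank 173 and 4.21-fold. Replicate 1 gave 18.9, rank 201 and 4.06-fold, and replicate 2 gave 15.6, rank 163 and 3.03-fold. At 3.54 ± 0.73-fold (SD, n = 2) it was below the upstream peak in both replicates. A gap of 1175 bp separates hsp-3 from C15H9.5 (WBGene00015801), which is transcribed in the opposite direction, and both summits lie in it. The stronger summit is 614 bp and the weaker 1102 bp upstream of the C15H9.5 start, so position alone gives the stronger peak to neither gene. Among the 4 other hsp-3 regions, the highest was in a coding exon 2426 bp downstream of the start, at 1.76-fold in the pooled list, 1.26-fold in replicate 1 and 1.91-fold in replicate 2.

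The other BiP gene, hsp-4 (WBGene00002008, chrII:7350112-7352645, minus strand), is known as the one strongly induced by the unfolded protein response, and it had no peak. Its strongest pooled region had its summit in the 3′ UTR exon, 2531 bp downstream of the start, at a signal of 10.6, rank 4940 and 1.36-fold. That summit, at 7350114, lay at the very edge of the gene, which ends at 7350112. The region, chrII:7349982-7350245, reaches past that end, and the replicate 2 summit, 4 bp away, lay outside the window. Replicate 1 gave 1.23-fold there and replicate 2 gave 0.94-fold, a mean of 1.08 ± 0.21-fold (SD, n = 2), which is near the median region. The second pooled region, 2503 bp upstream, lay in a coding exon of haf-2 at 0.87-fold. Replicate 1 had a region 10 bp downstream of the hsp-4 start at 1.14-fold, and no pooled region lay there. The largest pooled signal was therefore 9.76-fold in the hsp-3 window, at the peak that position gives to neither gene, against 1.36-fold in the hsp-4 window. The peak next to the hsp-3 start was at 4.21-fold. In both replicates every hsp-4 region was below both hsp-3 peaks. The proteins of both genes were 85.0% identical, and the longest stretch of identical coding sequence between the genes was 25 bp. Every 36-base word in the summit windows occurred once in the genome. The hsp-4 promoter was not among those windows and the aligner is not given, so an effect of read mapping was not tested.

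**Figure D1:**
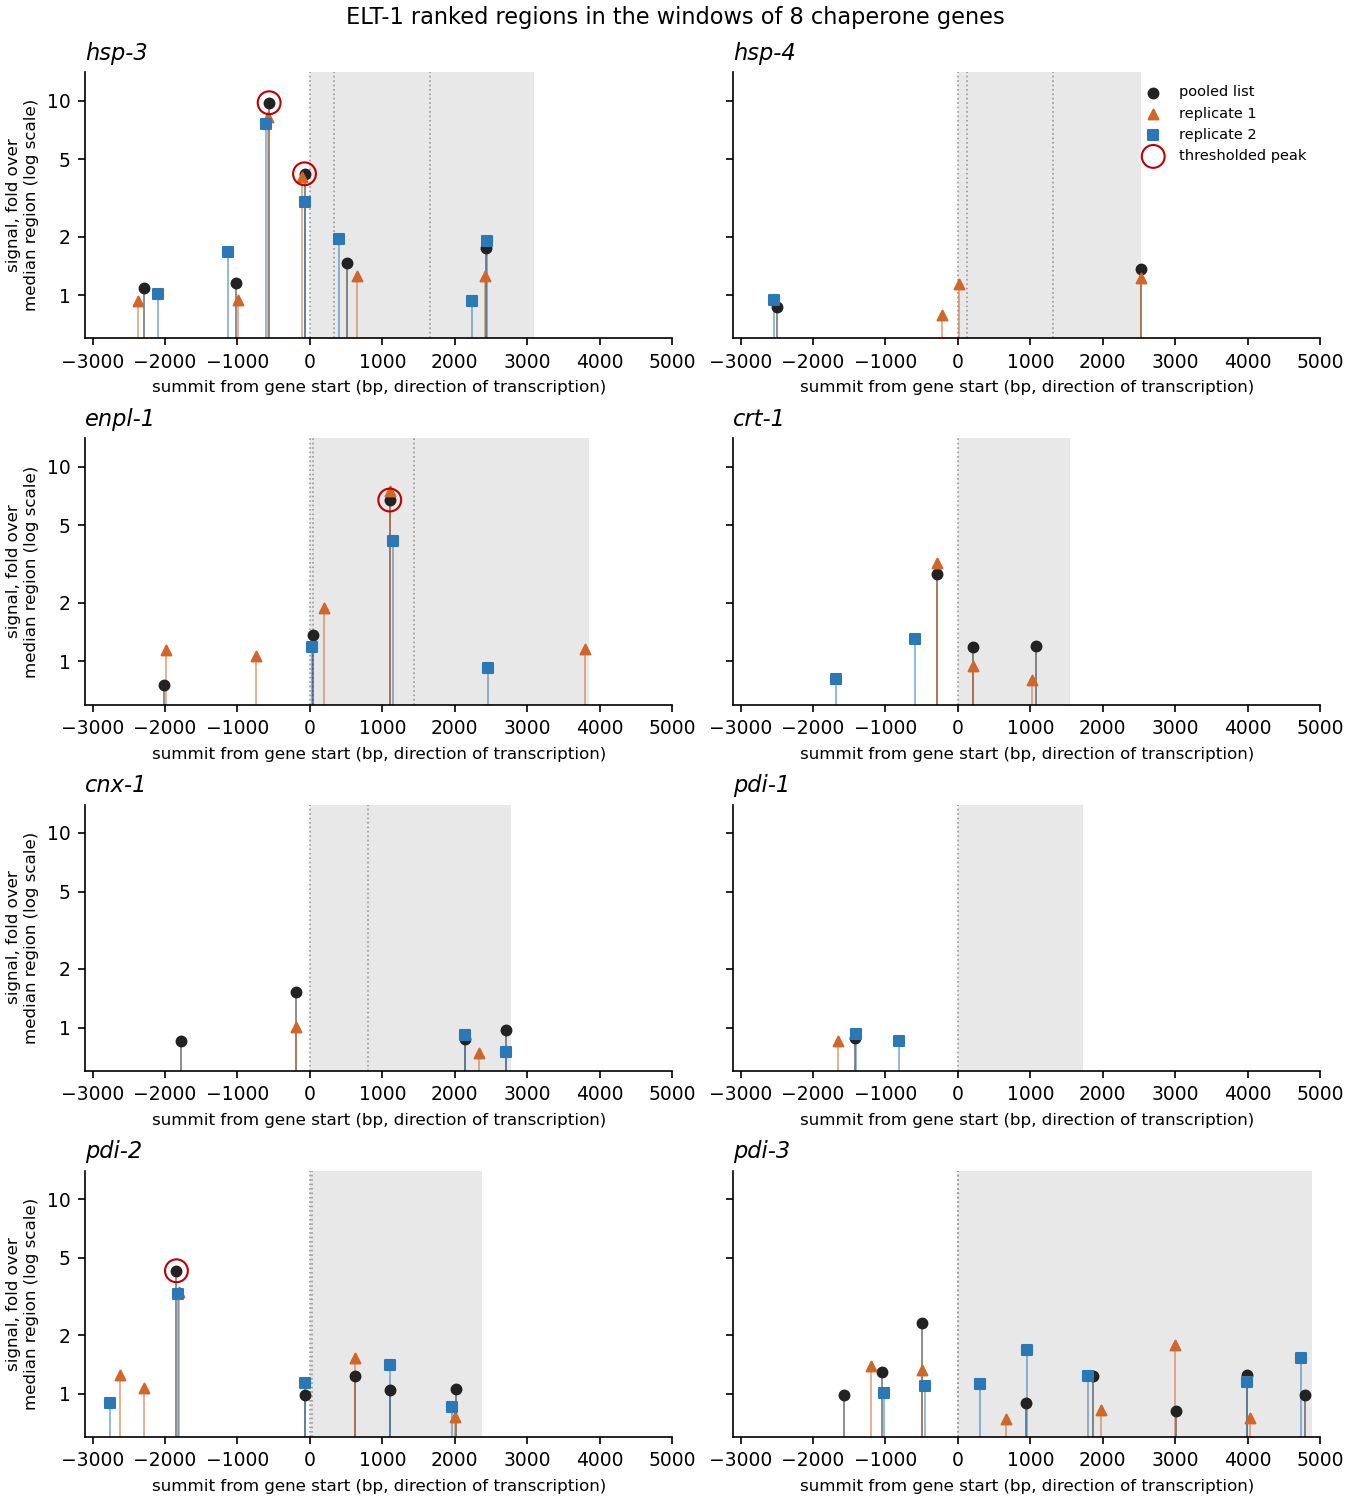
Ranked regions of the ELT-1 lists in the windows of the 8 chaperone genes. The x axis is the distance of the summit from the gene start in bp, in the direction of transcription, and the y axis is the fold in each list (log scale); the gray block is the gene body, dotted lines are annotated transcript starts, and symbols give the pooled and the replicate lists. The 4 circled peaks are at hsp-3 (9.76-fold and 4.21-fold), enpl-1 (6.75-fold) and pdi-2 (4.28-fold), and the hsp-4, cnx-1 and pdi-1 regions stay below 2-fold.

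The GRP94 gene enpl-1 (WBGene00011480, chrIV:11119298-11123155, plus strand) had 1 peak, inside the gene. It spanned chrIV:11120269-11120532, with the summit in an intron, 1103 bp downstream of the gene start. An internal transcript start lay 331 bp further downstream. The pooled signal was 52.7, rank 55 and 6.75-fold. Replicate 1 gave 34.9, rank 49 and 7.50-fold, at the same summit. Replicate 2 gave 21.5, rank 55 and 4.17-fold, with the summit 50 bp away. The ranks were close, while the folds of 5.83 ± 2.36 (SD, n = 2) differed by 1.80 times between replicates, the widest of the 4 peaks. As a log2 ratio this was 0.85, against a median absolute value of 0.68 over the 332 peaks matched in both replicates. Near the annotated gene start was a region at 1.36-fold, 39 bp into the 5′ UTR exon. The divergent gene imp-2, which encodes an intramembrane protease, starts 1514 bp from the peak summit on the other side of the enpl-1 start.

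Neither lectin chaperone gene had a peak. At crt-1 (WBGene00000802, chrV:6098992-6100542, minus strand) the strongest region spanned chrV:6100700-6100963, between genes and 290 bp upstream of the start. Its pooled signal was 21.9, rank 457 and 2.80-fold, and replicate 1 gave 14.9, rank 378 and 3.21-fold at the same summit. No replicate 2 summit lay within 100 bp. The strongest replicate 2 region of the crt-1 window was 596 bp upstream, at rank 6421 and 1.30-fold, so the crt-1 region was matched in replicate 1 only. At cnx-1 (WBGene00000567, chrIII:9814364-9817137, minus strand) the strongest region was 193 bp upstream, between genes, with a pooled signal of 12, rank 2917 and 1.53-fold. Replicate 1 gave 1.01-fold there and replicate 2 had no summit within 100 bp.

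The 3 disulfide isomerase genes spread from a peak to signal below the median region. For pdi-2 (WBGene00003963, chrX:4524155-4526536, plus strand), known also as the β subunit of the prolyl 4-hydroxylase that modifies cuticle collagens, the peak spanned chrX:4522181-4522444, between genes. Its summit was 1842 bp upstream of pdi-2 but only 169 bp upstream of C07A12.7 (WBGene00015561), the divergent gene on the other side of a gap of 2010 bp. The pooled signal was 33.4, rank 167 and 4.28-fold. Replicate 1 gave 15.5, rank 342 and 3.34-fold, and replicate 2 gave 16.9, rank 125 and 3.27-fold. The folds nearly coincided, at 3.31 ± 0.04 (SD, n = 2), although the ranks did not. Next to the pdi-2 start itself, 70 bp upstream, the pooled region was at 0.99-fold.

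At pdi-3 (WBGene00003964, minus strand), an isomerase of the ERp57 kind, the strongest pooled region was 499 bp upstream at a signal of 18, rank 723 and 2.30-fold. Neither replicate ranked that place high. Replicate 1 gave 6.18, rank 6349 and 1.33-fold, and replicate 2 gave 5.68, rank 11423 and 1.10-fold, a mean of 1.21 ± 0.16-fold (SD, n = 2). The strongest pdi-3 regions of the single replicates were elsewhere, 2996 bp downstream of the start at 1.77-fold in replicate 1 and 960 bp downstream at 1.67-fold in replicate 2. The gene ubql-1, which encodes ubiquilin, is divergent from pdi-3 and starts 676 bp from the pooled summit. At pdi-1 (WBGene00003962, chrIII:3699739-3701461, minus strand) the single pooled region was 1414 bp upstream, in a coding exon of C14B1.2, at a signal of 6.86, rank 21177 and 0.88-fold. Replicate 2 gave 0.93-fold there, and replicate 1 had no summit within 100 bp.

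**Figure D2:**
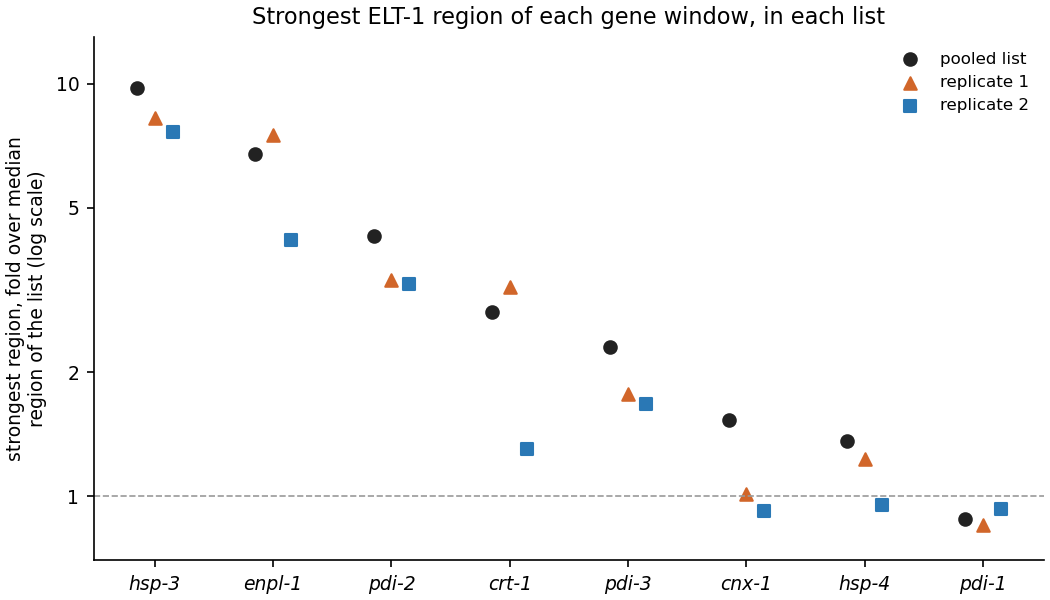
Strongest ranked region in the window of each chaperone gene, in each list. The x axis gives the genes in pooled order and the y axis the fold (log scale), with 1 symbol per list and the dashed line at 1; hsp-3, enpl-1 and pdi-2 lie highest in all 3 lists, except that crt-1 at 3.21-fold in replicate 1 comes close to pdi-2 at 3.34-fold and falls to 1.30-fold in replicate 2.

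By their strongest pooled region the genes ranked, among 19973, at 14 for hsp-3, 49 for enpl-1, 166 for pdi-2, 464 for crt-1, 743 for pdi-3, 3082 for cnx-1, 4913 for hsp-4 and 13781 for pdi-1. In replicate 1 the first 4 ranks were 34, 50, 343 and 380, and in replicate 2 they were 12, 55, 127 and 6256. The order of hsp-3 before enpl-1 before pdi-2 held in both replicates. The next neighbours did not hold: pdi-2 and crt-1 lay close in replicate 1 and far apart in replicate 2. For pdi-3, cnx-1 and hsp-4, replicate ranks were from 2304 to 12887. The median of the strongest regions was 2.55-fold over the 8 genes, with a range from 0.88 to 9.76, against 1.16-fold over the 16060 genes with a ranked region and 1.81-fold at their 90th percentile. Taking the first 351 regions of each replicate alone gave hsp-3, enpl-1 and pdi-2 again, where 1.77% of all genes had such a region in replicate 1 and 1.94% in replicate 2.

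**Figure D3:**
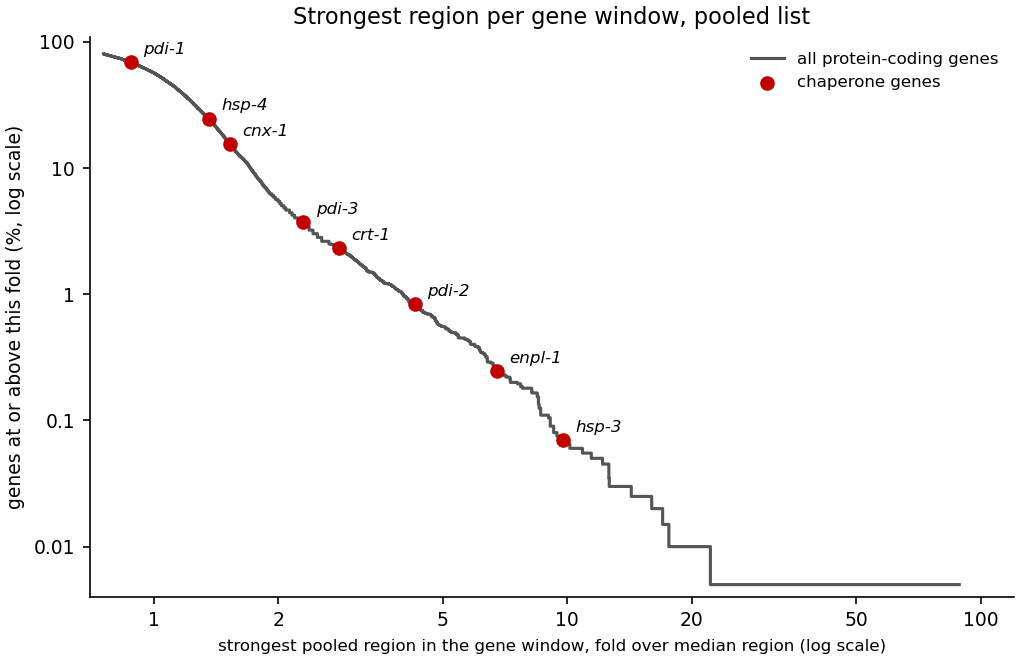
Place of the 8 chaperone genes among all protein-coding genes. The x axis is the fold of the strongest pooled region in the gene window and the y axis the percentage of genes at or above that fold (both log scales); points mark the chaperone genes, from hsp-3 at 0.0701% to pdi-1 at 69.0%.

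The weakest peak of the set was the hsp-3 peak next to the start, at rank 173 and a signal of 32.9, and the strongest region left outside was that of crt-1, at rank 457 and 21.9. The last region inside the thresholded list and the first outside it both had a signal of 24.6. Below the peaks, 26 of the 28 remaining regions were under 2-fold, and the 2 others were those of crt-1 and pdi-3. By the place of the summit alone, 14 of the 32 regions were in coding exons and 10 between genes. The 4 peak summits were 3 between genes and 1 in an intron, and none was in an exon. The hsp-3 peak next to the start, chrX:6092066-6092329, nonetheless reaches into the gene, whose start is at 6092124.

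Agreement between replicates entered the thresholding, so the shares below are a description. All 4 peaks had a summit within 100 bp in both replicates, as did 94.6% of the 351 peaks. Of the other 28 regions, 5 were matched in both, 20 in 1 and 3 in neither, while 12.4% of all regions below the threshold were matched in both. Replicate 1 gave the higher fold at 82.2% of the matched peaks, with medians of 4.27-fold in replicate 1 and 2.82-fold in replicate 2. It did so at each of the 4 chaperone peaks too, by 1.08 and 1.34 times at hsp-3, 1.80 at enpl-1 and 1.02 at pdi-2.

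**Figure D4:**
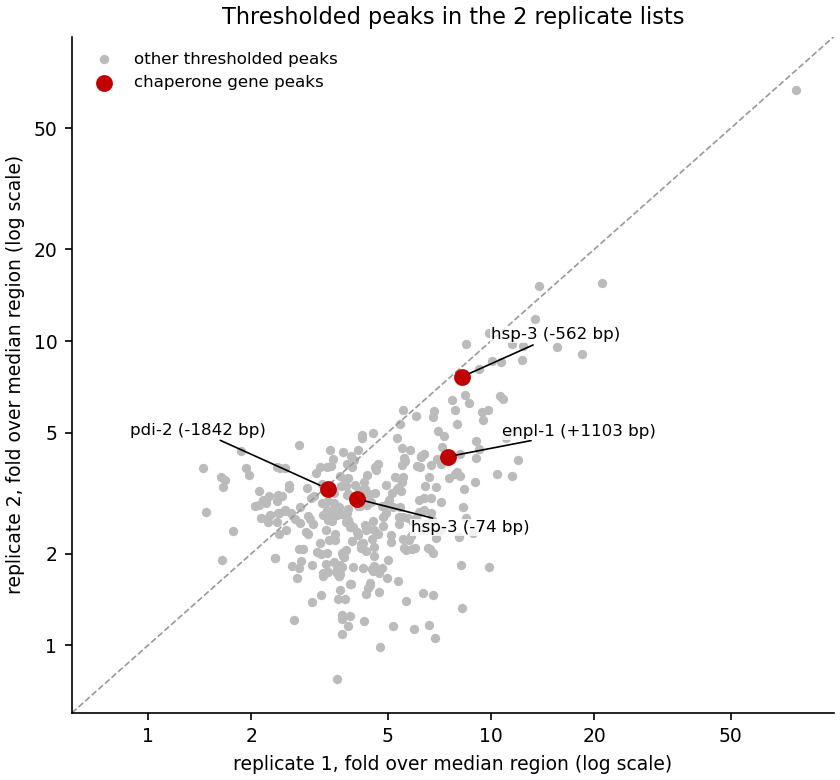
Folds of the thresholded peaks in both replicates. Each axis is the fold in that replicate (log scale), each point is a peak matched in both, and the dashed line marks equal folds; the chaperone peaks, in red, lie on the replicate 1 side of the line, closest to it for pdi-2 (3.34 and 3.27) and farthest for enpl-1 (7.50 and 4.17).

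Peaks elsewhere with the nearest values in both replicates were found for each gene. For hsp-3 it was a peak nearest to mdl-1, which encodes a MAD-like transcription factor, at 9.23-fold and 8.06-fold. For enpl-1 it was a peak nearest to the nuclear hormone receptor gene nhr-89, at 7.38-fold and 4.17-fold. For pdi-2 it was a peak nearest to cmtr-1, at 3.35-fold and 3.33-fold. Likeness was the distance in log2 fold over the 2 replicates, which was 0.18, 0.02 and 0.03.

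GATA sites lay within 50 bp of the summit at 3 of the 4 peaks, against 53.8% of the 351 peaks and 20.5% of the other ranked regions. At the upstream hsp-3 peak there was 1, on the strand opposite to the gene and 33 bp upstream of the summit, and another was 64 bp away. At enpl-1 there was 1, at 39 bp from the summit, and the whole region held 5. At pdi-2 there were 2 that overlap in AGATAAGATAA, with centres 1 bp before and 4 bp after the summit, and 16.8% of all peaks had 2 or more. The hsp-3 peak next to the start had none in its whole region. Of the regions below the threshold, the hsp-4 one had a site 2 bp from its summit, and those of crt-1, cnx-1, pdi-1 and pdi-3 had none within 50 bp.

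The peak without a GATA site also differed in base composition. The 101 bases around its summit were 66.3% G or C, against 48.5% at the upstream hsp-3 peak, 39.6% at enpl-1 and 43.6% at pdi-2. The median over the 351 peaks was 42.6%, and 6 of them, or 1.71%, reached 60%. The 6 were all among the 162 peaks with no GATA site within 50 bp, and none was among the 189 that had one. GATA sites are mostly A and T and were counted in the same bases, so composition partly fixes this split. Nothing is read from it. The crt-1 region, with no GATA site, was also rich in G and C, at 62.4%.

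Those 2 sequences, at hsp-3 and at crt-1, share a run of 12 bases, found after the sequences had been seen. It is printed here because it lies close to both starts.
shared run: cgccgattggcc
The run holds CCAAT, the Y box bound by the factor NF-Y, on the strand opposite to the gene. It is centred 51 bp upstream of the hsp-3 start and 264 bp upstream of the crt-1 start, and it was the longest run common to any pair of the summit sequences, where the next longest was 9 bases. It occurs 5 times in the nuclear genome. The run was taken from ranked regions, at pooled ranks of 173 and 457, so it had to lie in those, and the other 3 occurrences lay in none. Nothing is read from that difference. CCAAT itself was within 50 bp of the summit in 17.7% of the 351 peaks and in 21% of the other ranked regions.

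TGACGTG, the core of the element through which XBP-1 acts in the unfolded protein response, was searched on both strands in the same regions and in promoters, from 250 bp before to 50 bp after the start. The promoters of hsp-3 and hsp-4 held it, 2 of the 8 genes, against 2.93% of all genes. Both stretches are shown because the BiP genes share the element while the ELT-1 signals in their windows differ, with capitals for the element.
hsp-3, chrX:6092228-6092278: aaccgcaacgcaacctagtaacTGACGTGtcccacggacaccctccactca
hsp-4, chrII:7352700-7352750: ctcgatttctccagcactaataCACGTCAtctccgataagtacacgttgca
At hsp-3 it lies in the peak next to the start, 55 bp from the summit, and at hsp-4 it is on the opposite strand with no pooled ELT-1 region on it. The crt-1 region also held it, 41 bp from its summit. That element is centred 249 bp upstream of the crt-1 start and crosses the promoter edge at 250 bp, so the count of 2 turns on that edge. Of all regions, 2.28% of the peaks and 2.55% of the others held it. CCACG, a shorter element known from ER stress promoters, was in 6 of the 8 promoters, against 21.7% of all, and a GATA site in 3 of the 8, against 54.5%. The 3 were those of crt-1, cnx-1 and pdi-1, none of which had a peak.

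**Figure D5:**
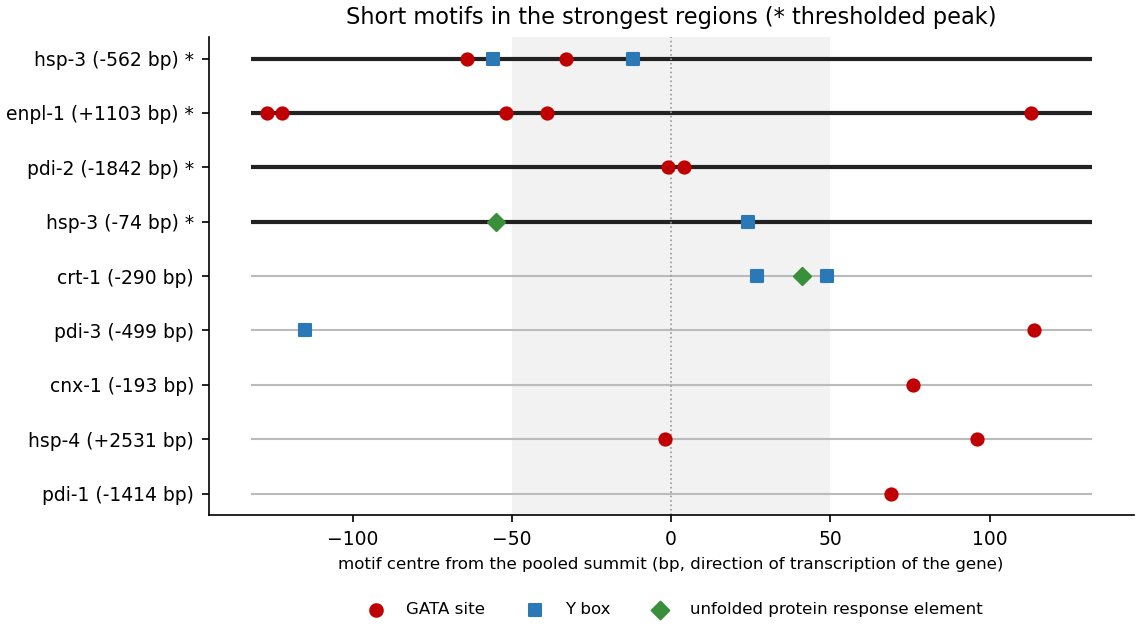
Short motifs in the strongest regions of the chaperone genes, with peaks marked by an asterisk. The x axis is the distance of the motif centre from the pooled summit in bp, in the direction of transcription. Each row is a region, and the shaded band is the 50 bp on either side of the summit. GATA sites lie in the band at the upstream hsp-3 peak, enpl-1, pdi-2 and hsp-4. The unfolded protein response element lies in the hsp-3 peak next to the start and in the crt-1 region. Y boxes lie in both hsp-3 peaks and in the crt-1 and pdi-3 regions.

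Both chaperone genes on X, hsp-3 and pdi-2, had a peak, and of the 6 on autosomes 1 had one. Of all protein-coding genes on X, 3.44% had a peak in the window, against 1.74% of genes on all chromosomes. Of the 351 peaks, 27.6% were on X, which holds 13.7% of protein-coding genes.

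Genes of the same and neighbouring pathways were listed by their roles, and 80 of their 90 names were in the annotation. Medians below are over genes with a ranked region, and every such list can be set against 1.16-fold over all genes with one. Peaks stood at 3 of the 80, where 1.74% of all protein-coding genes had one. None was at the 8 genes of the unfolded protein response, where the median of the strongest regions was 1.26-fold and the highest was xbp-1 at 2.21-fold, with 2.45-fold in replicate 1 and 1.13-fold in replicate 2. None was at the 6 other disulfide isomerase and oxidase genes, the 12 of ER translocation, the 4 of collagen prolyl hydroxylase or the 4 mitochondrial chaperones, whose medians were 1.26-fold, 1.28-fold, 1.05-fold and 2.07-fold. The collagen prolyl hydroxylase list holds the catalytic partners of pdi-2. In the mitochondrial list, hsp-60 and Y22D7AL.10, named after their values were seen, had equal values in every list. They were 2.43-fold in the pooled list, 2.19-fold in replicate 1 and 1.61-fold in replicate 2. Both windows may hold the same region, and the median of 2.07-fold counts the value for each gene. The remaining genes of that list, hsp-6 and dnj-10, were at 1.38-fold and 1.70-fold in the pooled list.

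The other 3 lists had 1 gene each. Among 12 other ER folding and glycosylation genes, with a median of 1.22-fold, it was dnj-20, a J-domain cochaperone of BiP (chrII:9619656-9619919, an intronic peak 4388 bp downstream of the start). That peak was at rank 64 and 6.40-fold in the pooled list, 8.85-fold in replicate 1 and 2.34-fold in replicate 2. Among 12 genes of ER-associated degradation, with a median of 1.23-fold, it was cdc-48.1, an ATPase that extracts proteins from the ER (chrII:10563423-10563686, 148 bp upstream), at 4.12-fold, 3.48-fold and 2.94-fold. Among 22 cytosolic chaperones, with a median of 1.20-fold, it was the chaperonin gene cct-1 (chrII:8185062-8185325, 249 bp upstream), at 3.40-fold, 3.67-fold and 1.22-fold. None of these 3 had a GATA site within 50 bp of its summit, and the folds of dnj-20 and cct-1 differed widely between the replicates.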

How the data were processed

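ELT-1-eGFP ChIP-seq of L2 larvae was available as region lists for 2 biological replicates, for both pooled, and as a thresholded list. The values used are the signal column that the authors deposited for each region. Per the listing deposited with the files, regions were ranked against a control, whose strain is not given, and the thresholded list comes from the irreproducible discovery rate. The aligner, the peak caller and the threshold were not given in the sources used here, and read depth is unknown.

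Only lists on ce11 (WBcel235) were used, with the RefSeq genome and Ensembl release 115 genes. Summits were assigned to windows from 3 kb upstream of a gene to its end, and replicate summits matched within 100 bp. Fold is the signal divided by the median of its list, so SDs include any difference in scale between lists. Many worm transcripts are trans-spliced, so annotated starts may lie downstream of true ones. Motifs were counted on both strands. Window assignment, the finding of GATA sites and summit matching were first tested on simulated data whose answers were known. The other steps were not. Analyses used Python 3.11.15, pandas 2.3.3, numpy 2.4.6, Biopython 1.88 and matplotlib 3.10.9.

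The members, pathway lists and motifs were chosen with earlier results of these data known. Other genes are named as neighbours with a shared region, as listed genes with a peak (up to 4 per list), or as the nearest gene, within 5 kb, of the peak most alike in both replicates. xbp-1 was named after its value was seen. Alternatives changed the window, the matching distance, the motif window, the peaks used and the replicates. The names of the pathway genes gained under alternatives are not reported here.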

Additional observations from a re-analysis of the deposited data

How the results depend on the processing

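The count of chaperone genes with a peak was 3 with summits up to 5 kb upstream (2.23% of all genes), with any overlap of region and window (1.81%), with the stronger 176 peaks (0.871%), and with either replicate alone. It was 2, without pdi-2, with 1 kb upstream (1.19%) and with summits from 1000 bp upstream to 200 bp downstream of any annotated transcript start (0.806%). All 8 genes had a ranked region, except that 7 had one with 1 kb. The 4 peaks were matched in both replicates at 50, 100 and 250 bp. With single replicates, the folds ranged from 7.63 to 8.24 and from 3.03 to 4.06 at hsp-3, from 4.17 to 7.50 at enpl-1 and from 3.27 to 3.34 at pdi-2. GATA sites stood at 3 of the 4 peaks within 50 bp, within 100 bp and in the whole region, as did the letters GATA alone within 50 bp. In the whole region GATA alone was in all 4. Of the pathway genes, 3 had a peak with 1 kb, and 5 with 5 kb. The first 351 regions of either replicate alone gave 4 such genes. Read depth is unknown, so no limit of detection can be given for genes with no peak.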

Other observations

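The pooled rank of the pdi-3 region stood far above both replicate ranks. Its pooled rank was 723, against 6349 and 11423. The region was singled out for this difference, so the shares below are a description and nothing is read from them. Among the 649 regions that follow the peaks up to pooled rank 1000, 467 had a summit within 100 bp in both replicates, and 8 of the 467, or 1.71%, had both replicate ranks beyond 5000, the pdi-3 region among them. The crt-1 region was one of 178 of the 649, or 27.4%, matched in 1 replicate only. Why the pooled and replicate ranks differ was not tested.

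The 3 occurrences of the 12-base run shared by hsp-3 and crt-1 that lay in no ranked region were between genes nearest to F16G10.10 and nhr-61 on chromosome II, and in an intron of sfa-1 on chromosome IV. They were 1867, 10922 and 2001 bp from the nearest transcript start. The run was found in the hsp-3 and crt-1 regions, so these places are given with no comparison. In ranked regions per kb of window, hsp-3 had 0.98, pdi-3 1.01, pdi-2 0.93, cnx-1 0.69, crt-1 0.66, enpl-1 0.44, hsp-4 0.36 and pdi-1 0.21, against a median of 0.27 over all genes.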
